A study of Mus musculus with 6 samples.

Results

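The genes described here encode the enzymes and proteins known to meet an antisense oligonucleotide inside a cell: 4 RNase H genes, 2 exonucleases, 3 paraspeckle proteins and the La protein. They were taken by symbol, and all 10 were found among the 52089 gene symbols of the deposited table, with 95 of its 168021 transcript accessions. The question was whether the RNA of these genes differed between cells given an oligonucleotide against the lncRNA *Ctcflos* and cells given a control oligonucleotide. The samples were primary brite adipocytes, the heat-producing fat cells that arise in white fat, grown from the stromal-vascular fraction of inguinal white adipose tissue of 129SvEv mice. Cells were induced for 2 days and kept for 1 day in differentiation medium, with rosiglitazone as the browning agent. The 3 *Ctcflos* KD libraries came from cells reverse transfected with an LNA Gapmer against *Ctcflos* at 50 nM, and the 3 control libraries (NC ctrl) from cells given a non-targeting LNA Gapmer at the same dose. RNA was taken 24 h later.

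Both groups thus received a gapmer, and cells without any oligonucleotide were not analysed here. A single oligonucleotide, named ASO1 in the study and directed at *Ctcflos* transcript 1, stands for the knockdown, so the loss of *Ctcflos* and other effects of that oligonucleotide cannot be told apart. The labels do not say whether the 3 libraries of a group came from separate cultures or animals, so p-values measure the spread between these libraries, which may be technical.

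A gapmer is a short DNA strand with modified ends that pairs with its target RNA. RNase H1 recognises the resulting RNA:DNA hybrid and cuts the RNA strand, after which 5′ to 3′ exonucleases, XRN2 in the nucleus and XRN1 in the cytoplasm, degrade the piece that carries the new 5′ end, while the RNA exosome degrades RNA from the 3′ end. SFPQ, NONO and PSPC1 form the DBHS family of nuclear proteins, which build paraspeckles on the lncRNA *Neat1* and can bind oligonucleotides with phosphorothioate linkages. The La protein, encoded by *Ssb*, binds the 3′ ends of new small RNAs and also such oligonucleotides.

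Levels are given in RPKM, reads scaled by the length of the transcript and by the mapped reads of the library, and a gene is given as the mean of its accessions. Log2 fold changes of genes and accessions are of RPKM + 1, which understates changes and narrows intervals at low levels. The depth recovered from the values was 60.8 to 75.5 mio mapped reads in *Ctcflos* KD and 62.9 to 79.2 mio in controls. The target *1300015D01Rik*, the symbol of *Ctcflos* in the table, was at 0.0969, 0.0705 and 0.210 RPKM in the *Ctcflos* KD libraries against 0.748, 0.751 and 0.840 RPKM in controls, or 16.1% of the control mean, and KD replicate 3 was the least lowered. The 7 adipocyte markers were all above 1 RPKM, and their summed level was lower in every *Ctcflos* KD library (4227 to 5629 RPKM) than in every control (5899 to 6556 RPKM). Most of this sum was *Fabp4* (mean 3291 against 4041 RPKM) and *Adipoq* (826 against 1187 RPKM). Of the 7, 1 was called lower and 0 higher by limma. The defining leukocyte genes *Ptprc* and *Adgre1* were below 0.1 RPKM on average, the 5 macrophage markers together reached 6.61 to 16.1 RPKM in *Ctcflos* KD against 8.04 to 27.3 RPKM in controls, and the 4 endothelial markers were at 0.513 to 0.810 and 0.821 to 1.08 RPKM. Of the macrophage markers *Lyz2* averaged 5.25 RPKM in *Ctcflos* KD against 12.9 RPKM in controls, *Cd68* 3.24 against 1.08 RPKM and *Csf1r* 1.29 against 0.513 RPKM, and 1 of the 2 tested was called higher. The 5 progenitor markers summed to 178.6 to 398.4 RPKM in *Ctcflos* KD against 274.5 to 448.6 RPKM in controls, and the 3 mural markers to 2.05 to 2.64 RPKM against 3.49 to 3.85 RPKM. Of 4 progenitor markers tested 1 was called lower and 0 higher, and the 1 mural marker tested was called lower. The part of these shifts in the results that follow was not tested, and fewer cells of a type and less RNA per cell cannot be told apart in bulk RNA.

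Of the 10 genes, *Pspc1* fell and *Ssb* rose in *Ctcflos* KD. *Rnaseh2a* and *Sfpq* had higher means that did not pass the test, and the remaining genes had means of 92.8% to 118.6% of the control mean. 9 genes had a mean of at least 1 RPKM over the 6 libraries and entered the test, and *Rnaseh2b* did not. In limma with Benjamini-Hochberg adjustment over 11701 genes, 1 of the 9 was called higher and 1 lower at an adjusted p under 0.05, while over all genes tested 11.5% were called higher and 12.4% lower. The median log2 fold change was 0.036 for the 9 genes and 0.028 for all genes tested. Without the filter *Rnaseh2b* stood at -0.013. Every *Ctcflos* KD library lay above every control in 2 of the 10 genes and below in 1, against 22.9% and 21.9% of all genes tested. Neither count of members stood apart from what all genes gave.

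**Figure D1:**
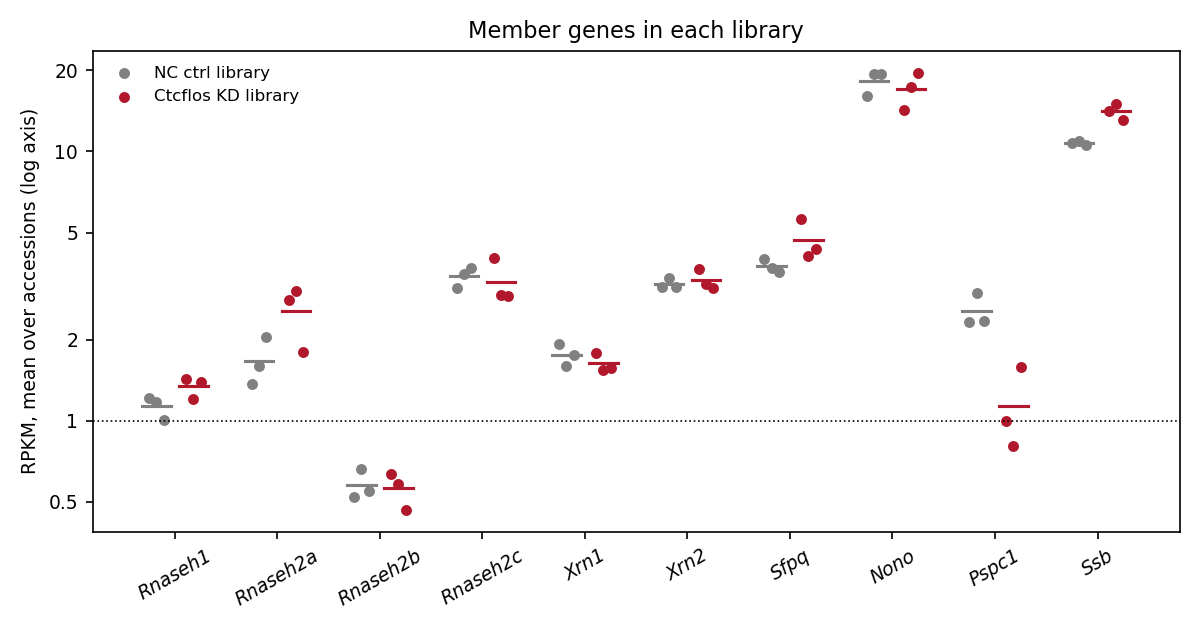
RPKM of each member gene (mean over its accessions, log axis) in the 3 NC ctrl and 3 *Ctcflos* KD libraries, with horizontal lines at the group means and a dotted line at 1 RPKM. The *Ctcflos* KD points of *Pspc1* (0.807 to 1.59 RPKM) lie below all its control points, those of *Ssb* and *Sfpq* lie above, and all points of *Rnaseh2b* lie under 1 RPKM.

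On the curated RefSeq mRNAs alone, where RPKM can be set side by side between genes, the control levels ran from *Nono* at 29.3 ± 2.94 RPKM (SD, n = 3) through *Ssb* at 11.8 ± 0.393, *Sfpq* at 7.36 ± 0.518 and *Xrn2* at 4.74 ± 0.126 RPKM. *Rnaseh2c* followed at 3.99 ± 0.494 and *Pspc1* at 3.75 ± 0.440 RPKM, and the control libraries of these neighbours overlapped. At the low end stood *Xrn1* at 1.81 ± 0.170, *Rnaseh1* at 1.66 ± 0.176, *Rnaseh2a* at 1.11 ± 0.247 and *Rnaseh2b* at 0.753 ± 0.113 RPKM. *Xrn1* and *Rnaseh1* overlapped, as did *Rnaseh2a* and *Rnaseh2b*, whereas the remaining neighbours did not. In *Ctcflos* KD the *Pspc1* mRNA, at 1.54 ± 0.553 RPKM, stood below *Xrn1* at 1.67 ± 0.158 and *Rnaseh1* at 1.92 ± 0.149 RPKM, though its libraries overlapped with theirs. The mRNA of RNase H1, the enzyme on which gapmers depend, stayed between 1.47 and 2.01 RPKM in all 6 libraries.

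*Pspc1* encodes paraspeckle component 1, a DBHS protein that pairs with NONO or SFPQ. The gene lies on the minus strand of chr14:56720710-56778316 (GRCm38, Gencode vM21) and spans 57.6 kb. Its mRNA and a transcript annotated for nonsense-mediated decay (ENSMUST00000168575) differ after the first exon, where the latter skips the second coding exon. The table holds no junction reads, and the 2 junctions are shown because accessions with and without this exon are both listed. In each line the last 15 bases of the first exon are in lower case and the first 15 bases of the exon joined to it are in capitals. On chromosome 14 the first exon ends at 56777791, and the joined exon starts at 56772006 in the mRNA and at 56764244 in the decay transcript, all of it annotated as coding.
*Pspc1* mRNA, exon 1 to exon 2: ggcttcatccgcctgGAATCGAGAACACTG
*Pspc1* decay transcript, exon 1 to exon 2: ggcttcatccgcctgAACACCTCGTCCAGT

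*Pspc1* was at 1.00, 0.807 and 1.59 RPKM in the *Ctcflos* KD libraries and at 2.33, 2.99 and 2.35 RPKM in controls. All 3 *Ctcflos* KD libraries were below all controls, and KD replicate 3 was the nearest to them. Calls over the whole table also rose without this library, from 2803 to 4784 genes. The mean was 1.13 ± 0.405 RPKM in *Ctcflos* KD against 2.56 ± 0.372 RPKM in controls (SD, n = 3), or 44.2%. The log2 fold change of RPKM + 1 was -0.75 (SE 0.148, 95% interval -1.09 to -0.41, adjusted p = 0.0134 by limma), a scale that understates the change of a gene at this level. The exact two-sided permutation test of the means gave p = 0.1, the smallest value that 3 libraries against 3 allow. Leaving out NC replicate 1 or NC replicate 3 raised the adjusted p to 0.0553 and 0.0538, and without KD replicate 3 it was 0.0012, with a fold change of -0.90.

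The decrease was seen across the transcript models of *Pspc1*. Of its 9 accessions 7 passed the filter, and in *Ctcflos* KD all 7 were lower, with means between 31.6% and 59.4% of those in controls. The 6 that were called stood at 31.6% to 50.3%. The mRNA NM_025682 was at 1.33, 1.12 and 2.16 RPKM in *Ctcflos* KD against 3.57, 4.25 and 3.43 RPKM in controls, with a log2 fold change of -0.92 (SE 0.158, adjusted p = 0.0064 by limma over 67403 accessions). Over all accessions tested 14.7% were called lower and 11.3% higher. The decay transcript, whose junction is printed above, had 48, 37 and 58 reads in *Ctcflos* KD and 78, 156 and 80 reads in controls. Its log2 fold change was -0.62 (SE 0.192, adjusted p = 0.0437 by limma), and it made up 11.4% of the summed RPKM of *Pspc1* accessions in *Ctcflos* KD and 10.03% in controls. These accessions share reads, and the mRNA and the clone AK017689 have equal values, so that they are not independent. The test for relative usage of accessions did not call *Pspc1* (adjusted p = 1 by limma diffSplice).

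*Nono*, which encodes the most abundant DBHS mRNA of these cells, lies on chrX:101429318-101448591. It ranged from 14.3 to 19.6 RPKM in *Ctcflos* KD and from 16.0 to 19.4 RPKM in controls, and the groups overlapped. Its log2 fold change was -0.10 (SE 0.145, 95% interval -0.43 to 0.24, adjusted p = 0.650 by limma). All 11 accessions tested had negative values between -0.12 and -0.05, and 0 were called by limma, with 0 at an unadjusted p under 0.05. The interval leaves room for a change of up to 0.43 in the downward direction.

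*Sfpq* encodes a DBHS protein that is essential for paraspeckles and also acts in splicing and transcription. It lies on the plus strand of chr4:127021324-127037013. The deposited table files 17 accessions under its symbol, of which 3 are annotated in Gencode vM21 as *Gm12940*, a noncoding gene that overlaps its end. A noncoding *Sfpq* transcript (ENSMUST00000146285, RefSeq NR_045010) shares the penultimate exon boundary of the mRNA and then joins an exon farther downstream. The 2 junctions are shown since the mRNA and this transcript are measured as separate accessions. Here the lower-case letters are the 15 bases before the junction and the capitals the 15 bases after it. On chromosome 4 the shared exon ends at 127027518, and the next one starts at 127029827 in the mRNA, within the coding sequence, and at 127035808 in the noncoding transcript.
*Sfpq* mRNA, exon 9 to exon 10: atgggaagcgacatgCGTACTGAGCGCTTT
*Sfpq* noncoding transcript, exon 7 to exon 8: atgggaagcgacatgGTAAGAATGATTGAT

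*Sfpq* was at 5.62, 4.08 and 4.34 RPKM in *Ctcflos* KD and at 3.98, 3.69 and 3.58 RPKM in controls. Every *Ctcflos* KD library was above every control, with KD replicate 1 standing highest and KD replicate 2 close to the highest control. The log2 fold change was 0.25 (SE 0.120, 95% interval -0.03 to 0.53, adjusted p = 0.164 by limma), so *Sfpq* was not called. Without KD replicate 1 it was 0.13 (adjusted p = 0.402 by limma). Without the 3 accessions of *Gm12940*, an alternative chosen after seeing the data, it was 0.27 (SE 0.122, adjusted p = 0.134).

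The log2 fold changes of the *Sfpq* accessions ran from -0.20 to 0.74, and from -0.078 without those annotated as *Gm12940*. Of 14 tested, 3 were called higher. The clone AK031234 rose from 2.10 ± 0.334 to 4.17 ± 0.496 RPKM (SD, n = 3), or 199.0% of the control mean, with a log2 fold change of 0.74 (SE 0.123, adjusted p = 0.0059 by limma). The noncoding transcript ENSMUST00000146285 had 244, 199 and 134 reads in *Ctcflos* KD and 146, 139 and 85 reads in controls, with a log2 fold change of 0.48 (SE 0.135, adjusted p = 0.0322 by limma). Of its 925 bases, 216 are shared with *Gm12940* on the same strand. Its RefSeq counterpart NR_045010 was at 5.61, 4.32 and 3.52 RPKM in *Ctcflos* KD against 2.97, 3.04 and 3.23 RPKM in controls. It was not called (log2 fold change 0.41, SE 0.143, adjusted p = 0.0637 by limma). The third accession called higher was ENSMUST00000140682, another noncoding model, at 0.55 (SE 0.141). The mRNA NM_023603 itself was at 12.2, 7.71 and 8.42 RPKM in *Ctcflos* KD against 7.96, 7.04 and 7.08 RPKM in controls, and the groups overlapped (log2 fold change 0.30, SE 0.160, adjusted p = 0.198 by limma). Relative usage within the gene was not called either (adjusted p = 1 by limma diffSplice), so a difference between the noncoding models and the mRNA was not shown.

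Over all 10 genes 77 accessions were tested, of which 11 were called higher and 6 lower. Over all accessions tested 11.3% were called higher and 14.7% lower. Those called higher were 8 of *Ssb* and 3 of *Sfpq*, and the 6 called lower were all of *Pspc1*. Accessions of a gene share reads, so these calls are not independent. The sum of 17 fell to 5 when any library other than KD replicate 3 was removed and rose to 32 without KD replicate 3. Genes called over the whole table also fell from 2803, to between 423 and 1632, and rose to 4784 in these fits.

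**Figure D2:**
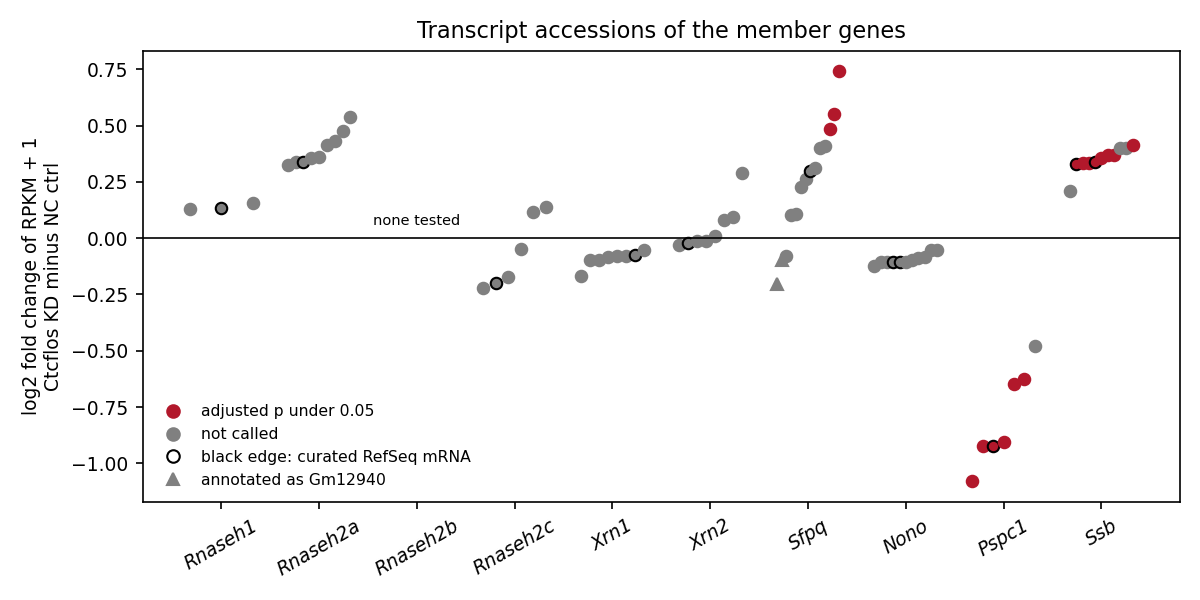
Log2 fold change of RPKM + 1 (*Ctcflos* KD minus NC ctrl) of each accession with a mean of at least 1 RPKM, grouped by gene, with called accessions in red, curated RefSeq mRNAs edged in black and accessions annotated as *Gm12940* as triangles. All 7 accessions of *Pspc1* lie below 0 and all 11 of *Ssb* above it, whereas those of *Sfpq* run from -0.20 to 0.74.

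*Ssb* encodes the La protein, which protects the 3′ ends of RNA polymerase III transcripts. It lies on the plus strand of chr2:69861562-69871846. *Ssb* was at 14.1, 15.02 and 13.1 RPKM in *Ctcflos* KD and at 10.8, 10.9 and 10.5 RPKM in controls. The lowest *Ctcflos* KD library, KD replicate 3, was above the highest control. The mean rose from 10.8 ± 0.202 to 14.1 ± 0.940 RPKM (SD, n = 3), or 131.1% of the control mean, with a log2 fold change of 0.36 (SE 0.102, 95% interval 0.12 to 0.59, adjusted p = 0.0383 by limma). This call was lost when any library other than KD replicate 3 was left out, with adjusted p between 0.0819 and 0.147 and fold changes between 0.32 and 0.37. Without KD replicate 3 it was 0.41 (adjusted p = 0.0144 by limma). It was also lost without the filter on low values (adjusted p = 0.06 by limma).

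All 11 accessions of *Ssb* were tested, all had positive values between 0.21 and 0.41, and 8 were called higher. Its mRNA accessions averaged 15.01, 16.0 and 14.4 RPKM in *Ctcflos* KD against 12.2, 11.8 and 11.4 RPKM in controls. The shares of the accessions within the gene moved by at most 0.391 percentage points, the least of the genes after *Nono* at 0.247. Some exons of *Ssb* overlap *Mettl5* and *Gm13625* on the opposite strand, and it is not known whether reads were assigned by strand. *Mettl5* itself was at 1.98 to 2.46 RPKM in *Ctcflos* KD against 1.99 to 2.90 RPKM in controls, far below *Ssb*.

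*Rnaseh1* encodes the enzyme that cuts the target RNA of a gapmer. It lies on chr12:28649602-28659589 and was at 1.43, 1.21 and 1.40 RPKM in *Ctcflos* KD and at 1.22, 1.18 and 1.00 RPKM in controls. The groups overlapped, since KD replicate 2 lay under the highest control. The log2 fold change was 0.14 (SE 0.092, 95% interval -0.08 to 0.35, adjusted p = 0.305 by limma). Its 3 tested accessions were all close to this value, between 0.13 and 0.16. With 0.1 added to RPKM in place of 1, the value of the gene was 0.23 (adjusted p = 0.316 by limma).

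RNase H2 is a trimer that removes RNA from RNA:DNA hybrids and single ribonucleotides from DNA. *Rnaseh2a*, on the minus strand of chr8:84956610-84969767, encodes the catalytic subunit. *Rnaseh2a* was at 2.82, 3.03 and 1.80 RPKM in *Ctcflos* KD and at 1.37, 1.60 and 2.05 RPKM in controls. KD replicates 1 and 2 were above all controls, and KD replicate 3 was under the highest one. The mean was 2.55 ± 0.657 RPKM against 1.67 ± 0.35 RPKM (SD, n = 3), or 152.3% of the control mean, with a log2 fold change of 0.40 (SE 0.160, 95% interval 0.03 to 0.77, adjusted p = 0.104 by limma). Without KD replicate 3 the value was 0.56 and passed the test (adjusted p = 0.0098 by limma). In that fit 4784 of the 11701 genes tested were called, against 2803 with all 6 libraries. All 9 tested accessions were positive, between 0.32 and 0.54, and 0 were called by limma, with 7 at an unadjusted p under 0.05.

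Part of *Rnaseh2a* overlaps *Prdx2*, an abundant gene on the opposite strand at 28.6 to 32.8 RPKM in *Ctcflos* KD against 27.7 to 32.1 RPKM in controls. Another 339 exon bases are shared with *Gm49661*, a protein-coding gene on the same strand for which no level was available. The mRNA NM_027187 shares no base with either gene. This mRNA was at 1.76, 1.94 and 1.30 RPKM in *Ctcflos* KD against 0.859, 1.11 and 1.35 RPKM in controls, or 150.5% of the control mean, close to the value of the whole gene.

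*Rnaseh2b* and *Rnaseh2c* encode the partners that hold the trimer together. *Rnaseh2b*, on chr14:62292589-62372992, was at 0.637, 0.584 and 0.467 RPKM in *Ctcflos* KD and at 0.521, 0.661 and 0.549 RPKM in controls. In the fit without a filter its log2 fold change was -0.013 (SE 0.092, 95% interval -0.23 to 0.20, adjusted p = 0.946 by limma). Since 1 was added to values under 1 RPKM, this interval is no tight bound on the change of *Rnaseh2b*. *Rnaseh2c*, on chr19:5601873-5607019, ranged from 2.91 to 4.02 RPKM in *Ctcflos* KD and from 3.11 to 3.68 RPKM in controls, with a log2 fold change of -0.06 (SE 0.124, 95% interval -0.34 to 0.23, adjusted p = 0.751 by limma). Both genes overlapped between groups. The last part of *Rnaseh2c* shares 426 bases with exons of *Kat5* on the opposite strand, and *Kat5* was at 3.47 to 5.06 RPKM in *Ctcflos* KD against 2.91 to 3.15 RPKM in controls. The part of *Kat5* in the value of *Rnaseh2c* was not tested.

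Within a library, the mean over accessions of *Rnaseh2b* stood at 0.226 ± 0.033 of that of *Rnaseh2a* in *Ctcflos* KD and at 0.354 ± 0.077 in controls (SD, n = 3). The ratio of *Rnaseh2c* to *Rnaseh2a* was 1.34 ± 0.336 and 2.09 ± 0.261. On these means over accessions, both ratios were lower in every *Ctcflos* KD library than in every control. The exact two-sided permutation test gave p = 0.1 for each, the smallest possible, and 0.2 after adjustment over the 6 ratios compared. *Rnaseh2b* was under 1 RPKM in every library. On the RefSeq mRNAs its ratio to *Rnaseh2a* overlapped between groups. KD replicate 3 (0.723 and 1.30 RPKM) stood above NC replicate 3 (0.699 and 1.35 RPKM), and the log2 difference was -0.50 in place of -0.63. The ratio of *Rnaseh1* to *Rnaseh2a* overlapped between groups (0.560 ± 0.194 and 0.705 ± 0.203, exact permutation p = 0.5). Among the DBHS genes, *Pspc1* stood at 0.066 ± 0.018 of *Nono* in *Ctcflos* KD and at 0.14 ± 0.017 in controls, without overlap (exact permutation p = 0.1, adjusted 0.2). *Sfpq* to *Nono* was 0.283 ± 0.096 and 0.208 ± 0.035, with overlap (exact permutation p = 0.3). The log2 ratio of *Sfpq* to *Nono* differed by 0.41 between the groups and by 0.15 without KD replicate 1. That of *Rnaseh1* to *Rnaseh2a* differed by -0.34, by -0.13 without KD replicate 2 and by -0.15 without NC replicate 1.

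The exonucleases lay close to the control level. *Xrn2*, on chr2:147012996-147078000, degrades nuclear RNA from the 5′ end and helps to end transcription. It ranged from 3.12 to 3.66 RPKM in *Ctcflos* KD and from 3.15 to 3.38 RPKM in controls, with a log2 fold change of 0.04 (SE 0.092, 95% interval -0.18 to 0.25, adjusted p = 0.80 by limma). *Xrn1*, on chr9:95954760-96057803, acts on decapped mRNA in the cytoplasm. It ranged from 1.55 to 1.79 RPKM in *Ctcflos* KD and from 1.59 to 1.93 RPKM in controls, with a log2 fold change of -0.07 (SE 0.093, 95% interval -0.28 to 0.15, adjusted p = 0.621 by limma). Exons of *Xrn1* overlap antisense genes, of which *Gm16794* was at 0.510 to 0.688 RPKM in *Ctcflos* KD against 0.399 to 0.505 RPKM in controls. The ratio of *Xrn2* to *Xrn1* was 2.04 ± 0.044 in *Ctcflos* KD and 1.85 ± 0.249 in controls (SD, n = 3), with overlap (exact permutation p = 0.4). Its log2 difference was 0.15, and 0.067 without NC replicate 1. One retained-intron accession of *Xrn2*, ENSMUST00000137358, was at 2.17, 2.19 and 1.13 RPKM in *Ctcflos* KD and at 1.34, 1.47 and 1.04 RPKM in controls, and was not called (log2 fold change 0.29, SE 0.168, adjusted p = 0.229 by limma).

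In the test of accession usage, 9 of the 10 genes could be tested and 0 were called by limma diffSplice, with 0 at an unadjusted p under 0.05. Over all 10027 genes tested for usage 0.768% were called. Without KD replicate 3 the usage of *Xrn2* was called (adjusted p = 0.0090 by limma diffSplice). In that fit 215 genes were called for usage over the whole table, against 77 with all 6 libraries. No member was called for usage when any other library was left out.

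**Figure D3:**
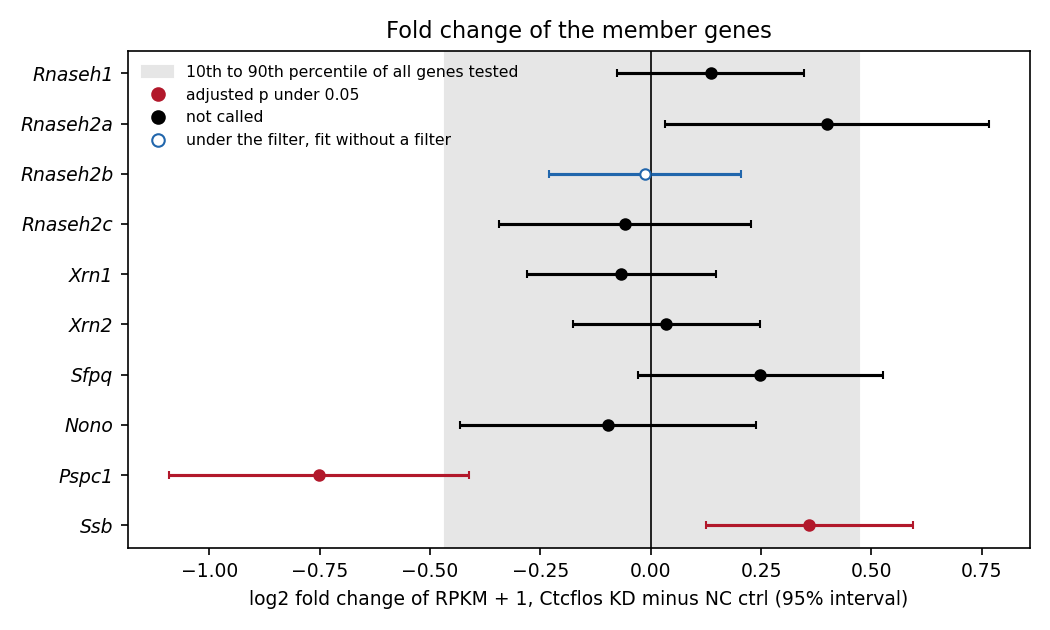
Log2 fold change of RPKM + 1 (*Ctcflos* KD minus NC ctrl) with its 95% interval for the 10 genes, in red where the adjusted p was under 0.05 and as an open symbol for *Rnaseh2b* from the fit without a filter, with the 10th to 90th percentile of all genes tested (-0.47 to 0.47) shaded. *Pspc1* at -0.75 lies outside the shaded range and *Ssb* at 0.36 inside it.

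**Figure D4:**
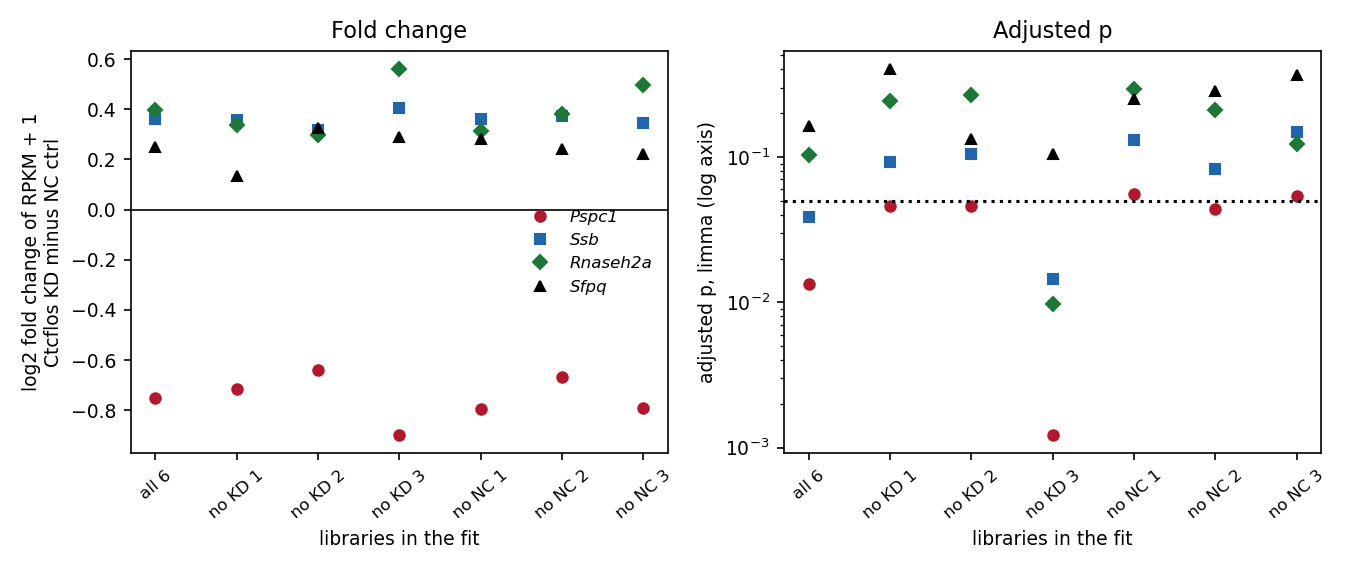
Log2 fold change (left) and adjusted p by limma on a log axis (right) of *Pspc1*, *Ssb*, *Rnaseh2a* and *Sfpq* with all 6 libraries and with 1 library removed at a time, with a dotted line at 0.05. The signs held throughout, and the adjusted p of *Pspc1* stayed between 0.0012 and 0.0553. Without KD replicate 3 *Pspc1*, *Ssb* and *Rnaseh2a* were all past the line. In that fit 4784 of the 11701 genes tested were called, against 2803 with all 6 libraries.

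Partners of these enzymes and proteins were compared next. On 5 lists of partner genes 86 genes were tested, of which 19 were called higher and 8 lower by limma, with a median log2 fold change of 0.13. Over all genes tested the calls were 11.5% and 12.4% and the median 0.028, as given above. Leaving out 1 library moved these counts to between 1 and 31 higher and between 2 and 14 lower. The lowest count of genes called higher, 1, came without NC replicate 1 or NC replicate 3. It was 8 to 11 without KD replicate 1, KD replicate 2 or NC replicate 2, and both highest counts came without KD replicate 3.

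Among 15 tested genes of 5′ decay and of XRN partners, 5 were called higher and 1 lower, with a median log2 fold change of 0.26. CDKN2AIP, CDKN2AIPNL and NKRF bind XRN2 through the same kind of domain. *Cdkn2aipnl* was at 9.01, 10.3 and 7.81 RPKM in *Ctcflos* KD and at 4.13, 4.08 and 4.67 RPKM in controls, a log2 fold change of 0.92 (SE 0.119, adjusted p = 0.0049 by limma). *Cdkn2aip* was at 5.60, 6.69 and 4.43 RPKM against 3.35, 3.12 and 2.87 RPKM (log2 fold change 0.66, SE 0.136, adjusted p = 0.0154 by limma). Every *Ctcflos* KD library of both genes was above every control. *Ddx6*, a helicase that promotes decapping, rose from 15.5 ± 0.575 to 25.8 ± 3.25 RPKM (log2 fold change 0.69, SE 0.125, adjusted p = 0.0106 by limma). *Nkrf* at 0.46 and *Edc4*, a decapping scaffold, at 0.44 were the other genes called higher, named here after their values were seen. *Lsm1*, part of the ring that binds deadenylated mRNA before decapping, fell from 10.6 ± 0.436 to 6.95 ± 1.86 RPKM (log2 fold change -0.57, SE 0.161, adjusted p = 0.0382 by limma). Without NC replicate 1 or NC replicate 3 the count called higher was 1, and the lower call was lost without any library other than KD replicate 3 and without the filter on low values. Without KD replicate 3 the counts were 7 and 3.

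Of 22 tested exosome genes 4 were called higher and 4 lower, with a median log2 fold change of 0.12. *Exosc10*, a nuclear exonuclease of the exosome, was at 2.30, 1.91 and 1.55 RPKM in *Ctcflos* KD and at 0.984, 1.08 and 0.988 RPKM in controls (log2 fold change 0.53, SE 0.112, adjusted p = 0.0168 by limma). *Exosc6*, a subunit of its ring, rose from 4.79 ± 0.266 to 7.53 ± 1.18 RPKM (adjusted p = 0.0198 by limma). *Dis3l*, an exonuclease of the cytoplasmic exosome, was at 1.05, 0.816 and 1.15 RPKM in *Ctcflos* KD and at 2.06, 2.07 and 2.23 RPKM in controls (log2 fold change -0.64, SE 0.097, adjusted p = 0.0072 by limma). *Mphosph6*, a nuclear exosome cofactor, fell from 4.77 ± 0.267 to 2.62 ± 0.728 RPKM (adjusted p = 0.0158 by limma). The other genes called, named after their values were seen, were *Exosc4* and *Exosc2* (higher) and *Exosc5* and *Zcchc7* (lower). Without KD replicate 2, NC replicate 1 or NC replicate 3 the counts were 0 higher and 1 lower, and without KD replicate 1 or NC replicate 2 both were 2. Without KD replicate 3 there were 7 higher and 5 lower, and without the filter on low values 0 higher and 2 lower.

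Of 18 tested partners of RNase H and genes that resolve RNA:DNA hybrids, 0 were called higher and 2 lower by limma, with 3 higher and 4 lower at an unadjusted p under 0.05. Their median log2 fold change was 0.13. *Thoc2*, of the THO complex that packages new RNA, fell from 3.25 ± 0.232 to 2.03 ± 0.473 RPKM (log2 fold change -0.49, SE 0.124, adjusted p = 0.0263 by limma). *Rpa3*, the smallest subunit of replication protein A, fell from 4.12 ± 0.318 to 2.96 ± 0.410 RPKM (log2 fold change -0.37, SE 0.108, adjusted p = 0.0411 by limma). *Rpa1*, the large subunit, which stimulates RNase H1, was not called (log2 fold change -0.25, SE 0.132, adjusted p = 0.201 by limma). The 2 calls were lost without any library other than KD replicate 3 and without the filter on low values, and without KD replicate 3 there were 3 in each direction.

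Of 13 tested paraspeckle components 2 were called higher and 0 lower by limma, with 0 lower at an unadjusted p under 0.05, and the median log2 fold change was 0.10. *Tardbp*, which encodes TDP-43, rose from 11.2 ± 1.34 to 15.6 ± 0.581 RPKM (adjusted p = 0.0289 by limma), and *Matr3*, which encodes the nuclear matrix protein matrin 3, from 19.5 ± 2.17 to 27.1 ± 1.501 RPKM (adjusted p = 0.0308 by limma). *Neat1*, the RNA scaffold, was at 53.7, 36.0 and 65.6 RPKM in *Ctcflos* KD and at 71.0, 78.5 and 59.1 RPKM in controls. KD replicate 3 was above the lowest control, and *Neat1* was not called (log2 fold change -0.45, SE 0.222, adjusted p = 0.169 by limma). The 2 calls were lost without KD replicate 1, KD replicate 2, NC replicate 1 or NC replicate 3 and without the filter on low values. One was left without NC replicate 2, and without KD replicate 3 there were 2 higher and 2 lower.

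Of 18 tested genes of other proteins that bind phosphorothioate or nuclear oligonucleotides, 8 were called higher and 1 lower, with a median log2 fold change of 0.33. *Ncl*, which encodes nucleolin, was at 12.6, 13.0 and 10.5 RPKM in *Ctcflos* KD and at 6.33, 7.53 and 6.46 RPKM in controls (log2 fold change 0.74, SE 0.121, adjusted p = 0.0084 by limma). *Ilf2*, which encodes the RNA-binding protein NF45, rose from 3.69 ± 0.417 to 6.47 ± 0.605 RPKM (adjusted p = 0.0085 by limma). *Xrcc6*, which encodes the DNA end-binding protein Ku70, was at 1.18, 1.33 and 1.76 RPKM in *Ctcflos* KD and at 2.88, 2.75 and 3.10 RPKM in controls (log2 fold change -0.70, SE 0.111, adjusted p = 0.0078 by limma). No *Ctcflos* KD library of these 3 genes overlapped with a control. The count called higher was 0 without NC replicate 1 or NC replicate 3, 3 without KD replicate 1 or KD replicate 2, 4 without NC replicate 2 or without the filter on low values, and 12 without KD replicate 3, with 1 lower in each.

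**Figure D5:**
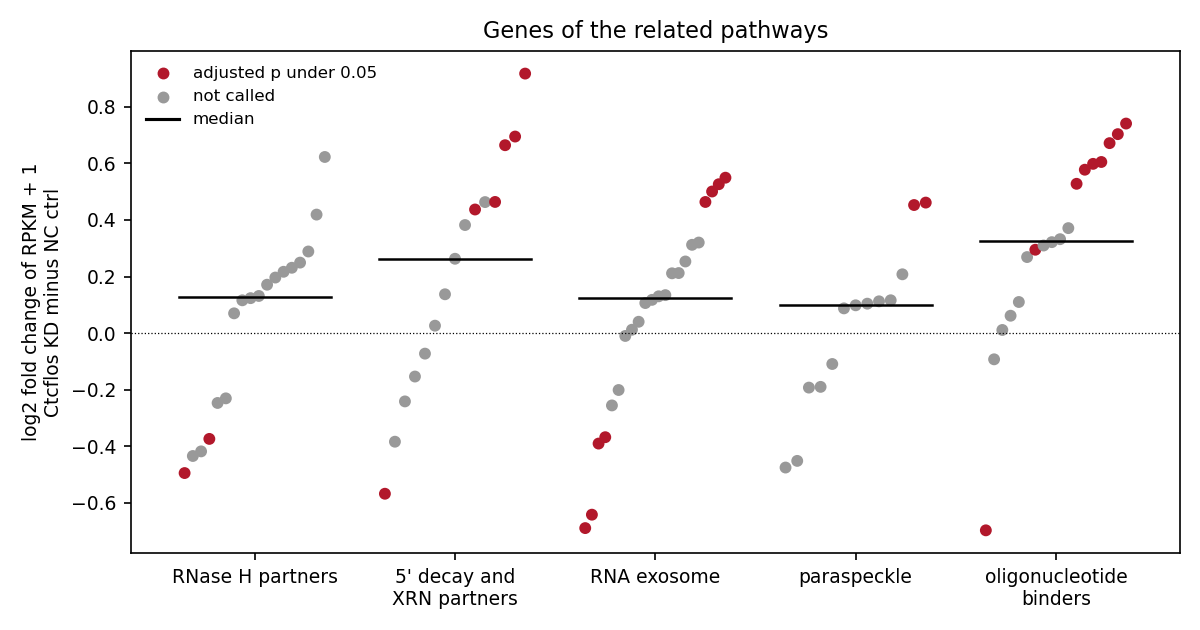
Log2 fold change of RPKM + 1 (*Ctcflos* KD minus NC ctrl) of the tested genes of the 5 lists, sorted within a list, with called genes in red and a black line at the median of each list. The medians run from 0.10 for the paraspeckle components to 0.33 for the oligonucleotide binders, and every list also holds genes with negative values.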

How the data were processed

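RNA-seq of total RNA (stranded kit) was given for 3 *Ctcflos* KD and 3 NC ctrl libraries, grouped by their labels. The authors deposited RPKM per transcript accession, with replicates not pooled. For its splice analysis the study mapped deep-sequenced *Ctcflos* KD and control libraries to GRCm38 with STAR. The aligner, counter and annotation behind the RPKM are not given in the sources used here, nor whether counting used the strand. Of 168326 lines, 305 exact repeats were removed. Low values were whole reads (tolerance 0.1) in at least 95.9% of cases, which gave the depth. Accessions of a symbol were averaged to a gene value, and genes with a mean of at least 1 RPKM were tested on log2(RPKM + 1) with limma-trend 3.58.1 in R 4.3.3 and Benjamini-Hochberg adjustment over the whole table. Usage was tested with limma diffSplice on log2(RPKM + 0.1). Exact permutation tests used scipy 1.17.1. The scripts were tested on simulated data. Positions, transcript models and junction sequences come from Gencode vM21 (GRCm38).

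The members and gene lists were chosen with earlier results of these data known. Named were all 10 members, of each list the 2 genes called higher and the 2 called lower with the smallest adjusted p, and *Neat1*, *Rpa1*, *Exosc10* and *Cdkn2aip* whatever their result. A further gene of this rule is not reported here. Of 97 names on the lists, 93 were in the table. Alternatives were a pseudocount of 0.1, no filter, the replicate number as a block, median-of-ratios scaling, RefSeq mRNAs alone, the highest accession alone, an adjusted p of 0.01 and leaving out each library.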

Additional observations from a re-analysis of the deposited data

How the results depend on the processing

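The signs of *Rnaseh1*, *Rnaseh2a*, *Xrn1*, *Sfpq*, *Pspc1* and *Ssb* held under every alternative run. Genes near 0 changed sign without passing the test: *Rnaseh2b* to 0.039 on RefSeq mRNAs and on the highest accession, 0.031 without KD replicate 3 and 0.025 without NC replicate 2, *Rnaseh2c* to 0.11 on the highest accession and 0.0019 without KD replicate 3, *Xrn2* to -0.022 on RefSeq mRNAs, -0.029 on the highest accession and -0.017 without KD replicate 1, and *Nono* to 0.020 without KD replicate 1. Without a filter 1807 genes were called over the whole table in place of 2803, 0 members higher (*Ssb* at an adjusted p of 0.06 by limma), 8 list genes higher and 3 lower, and 489 genes for usage in place of 77. At an adjusted p of 0.01 these were 523 genes, 0 members in either direction, 4 list genes higher and 2 lower. The replicate number as a block gave 1671 genes, 0 members higher, 11 list genes higher and 3 lower, and 8 member accessions in place of 17. *Ssb* then had an adjusted p of 0.0965 by limma and *Pspc1* kept its call (0.0355). Same-numbered libraries did not deviate together (correlations 0.287, -0.288 and -0.418 over genes), so the numbers were not taken as pairs. With each library left out in turn, 423 to 4784 genes, 0 to 2 members higher, 0 to 1 lower, 1 to 31 list genes higher, 2 to 14 lower, 5 to 32 member accessions, 33 to 215 genes for usage and 0 to 1 members for usage were called. In the same fits *Rnaseh2b* ran from -0.047 to 0.031, *Rnaseh2c* from -0.18 to 0.0019, *Xrn1* from -0.11 to -0.023, *Xrn2* from -0.017 to 0.070 and *Nono* from -0.20 to 0.020. The log2 fold change of RPKM + 1 of *Ctcflos*, from a fit without a filter, was -0.66 (adjusted p = 0.0254 by limma). With 0.1 added to RPKM in place of 1 it was -2.01 (adjusted p = 0.0191 by limma). With 1 added and each library left out in turn it was -0.63 to -0.72. Its call was then lost without any library other than KD replicate 3 (adjusted p = 0.0619 to 0.130 by limma), as it was with the block (0.114). Scaling by the median of ratios moved the median of all genes from 0.028 to 0.0049 and changed no member's call. All 6 accessions of *Rnaseh2b* failed the filter.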
